A study of Mus musculus with 4 samples.

Results

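The MHC class II antigen presentation genes examined here are 8 genes of 18193 named on the array. They are the class II chain genes H2-Aa, H2-Ab1 and H2-Eb1, the peptide-exchange chain gene H2-DMa, the invariant chain gene Cd74, the transactivator gene Ciita, the protease gene Ctss and the costimulatory ligand gene Cd86. The members were all probe sets that the platform annotation gives to these symbols alone, 17 of 34945 such probe sets. H2-Aa had 4 of them, H2-Ab1 and Ciita 3 each, H2-DMa and Cd86 2 each, and H2-Eb1, Cd74 and Ctss 1 each.

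The arrays measured mixed RNA of Kupffer cells, which are macrophages resident in the liver, and of the mouse colon carcinoma line SL4, both of the strain C57BL/6. The Kupffer cells were sorted for CD45, CD11b and the macrophage antigen that Adgre1 encodes. They came from 12-week-old female mice that were wild-type or Clec4n-/-, that is, without the receptor Dectin-2, and the SL4 cells were the same in all groups. Each of the 4 groups used 100000 cells of either kind for 8 hours, grown in co-culture or as separate cultures whose RNA was then mixed. Each group had 1 array, so a ratio between a pair of arrays has no replicate check, and the labels do not say how many mice gave the cells.

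MHC class II molecules are pairs of an alpha and a beta chain that carry peptides from endosomes to the cell surface, where CD4+ T cells read them. The invariant chain fills the peptide groove until cathepsin S and other proteases trim it, and the H2-DM molecule then exchanges the remaining fragment for a peptide. Ciita is the master transcriptional activator of these genes, and interferon gamma is its classical inducer in macrophages. In liver, class II is displayed by Kupffer cells, dendritic cells and B cells, and most carcinoma lines show little of it unless stimulated. C57BL/6 mice carry a defective E alpha gene, so that the A molecule, made from H2-Aa and H2-Ab1, is their class II molecule at the surface.

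Class II promoters share a module of an X box and, downstream of it, a Y box, at which Ciita acts through the factors bound there. RefSeq windows of GRCm38.p6, from 250 bases before to 50 after a gene's start, were read for 4 of the members, H2-Aa, H2-Eb1, H2-DMa and Ctss. They were searched on both strands for the X core GCAAC and the Y box CTGATTGG, letters chosen after these windows had been seen. The pair, with 10 to 40 bases between them, was found in H2-Aa and H2-Eb1 and in 44 of all 32851 windows (0.134%). The Y box alone was in 4.10% of all windows and the X core alone in 35.2%. The stretch of H2-Aa lies at chr17:34287847-34287924 on the minus strand and that of H2-Eb1 at chr17:34305756-34305832 on the plus strand. They are shown because they hold the pair, which the windows of H2-DMa and Ctss did not. The capitals mark the X core and the Y box, 25 bases apart in H2-Aa and 24 in H2-Eb1.
H2-Aa: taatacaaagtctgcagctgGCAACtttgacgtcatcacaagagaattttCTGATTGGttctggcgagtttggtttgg
H2-Eb1: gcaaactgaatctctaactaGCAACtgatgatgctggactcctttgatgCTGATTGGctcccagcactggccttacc
A match of letters describes the sequence and shows no binding.

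Most of the class II genes gave signals in the dim range of the array. A floor was set at the median signal of all probe sets over the 4 arrays, 76.1, under which no ratio is given. The floor is not a detection limit, and no detection calls were used. Of the 17 member probe sets, 14 lay under the floor in all 4 arrays, with signals between 0.149 and 59.7, and 3 lay above it in at least 1 array. Of all named probe sets, 59.2% lay above it in at least 1 array. The 3 belong to Cd74, Ctss and H2-Aa, and the other 5 genes were under the floor in every array. Different probe sets bind their targets differently, so these signals do not rank the genes by amount of RNA.

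**Figure D1:**
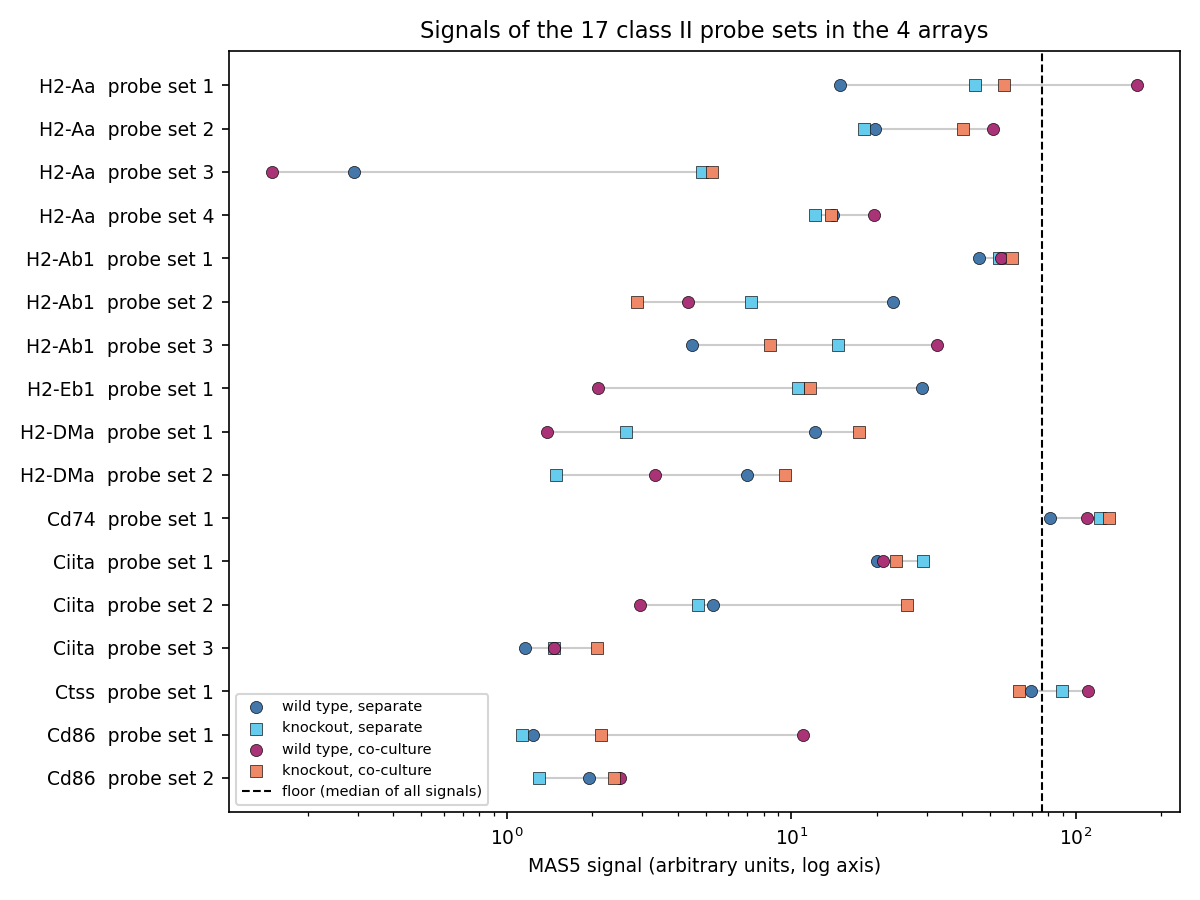
Signals of the 17 member probe sets in the 4 arrays, on a log axis in arbitrary MAS5 units, with 1 point per array and a grey line from the lowest to the highest. The dashed line is the floor of 76.1, and only Cd74 lies to its right in all 4 arrays.

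Among the class II chains, H2-Aa had 1 array above the floor. Its brightest probe set read 14.8 (wild-type separate), 44.2 (knockout separate), 164 (wild-type co-culture) and 56.0 (knockout co-culture). The wild-type co-culture array stood above the other 3, which all lay under the floor. This probe set is of the x_at kind, whose probes can also match related sequences, as are 3 of the gene's 4.

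The other 3 probe sets of H2-Aa reached at most 51.1. One of them had the same order of cultures, at 19.7 (wild type) and 18.0 (knockout) when cultured apart and 51.1 (wild type) and 40.1 (knockout) in co-culture. Another was nearly level, at 14.0, 12.1, 19.6 and 13.8 in the same order of arrays, and the last read 5.28 or less everywhere. The wild-type co-culture array was the brightest in 3 of the 4 probe sets.

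H2-Ab1, the beta chain that pairs with H2-Aa, had nearly level signals just under the floor. Its brightest probe set read 45.8 (wild-type separate), 53.8 (knockout separate), 54.8 (wild-type co-culture) and 59.7 (knockout co-culture). Its other probe sets read between 2.87 and 32.6 and had no common order: 1 was brightest in wild-type separate culture and the other in wild-type co-culture.

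H2-Eb1, the E beta chain, read 28.8 (separate) and 2.10 (co-culture) in wild type, the opposite order to H2-Aa, with 10.6 (separate) and 11.6 (co-culture) in knockout. No fold is given for it, since no array reached the floor. H2-DMa, the alpha chain of the exchange molecule, read 12.1 (separate) and 1.38 (co-culture) in wild type and 2.62 (separate) and 17.3 (co-culture) in knockout, and its second probe set read between 1.49 and 9.49.

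Cd74, the invariant chain and the chaperone of class II, was the only member above the floor in all 4 arrays. It read 81.2 (wild-type separate), 122 (knockout separate), 109.5 (wild-type co-culture) and 131 (knockout co-culture). Knockout was brighter than wild type in both cultures, and co-culture brighter than separate culture in both genotypes, but the groups span less than a 2-fold range close to the floor.

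Ctss, which encodes cathepsin S, read 69.4 (wild-type separate), 89.8 (knockout separate), 111 (wild-type co-culture) and 63.4 (knockout co-culture). The order of the genotypes was opposite in the 2 cultures: knockout was brighter in separate culture and dimmer in co-culture.

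Ciita, the transactivator, stayed under the floor in its 3 probe sets. The brightest read 20.1 (wild type) and 29.1 (knockout) when cultured apart and 21.0 (wild type) and 23.4 (knockout) in co-culture, and the other 2 probe sets ranged from 1.16 to 25.5. Cd86, a ligand of CD28 on T cells, lay under the floor in both probe sets, at 1.14 to 11.02 in the probe set used for the gene and 1.30 to 2.51 in the other. Its highest value, 11.02, was in the wild-type co-culture array.

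The culture comparison, of co-culture with separate culture of the same cell kinds, was made once in each genotype. In wild type, H2-Aa was at least 2.15-fold higher in co-culture, Ctss at least 1.45-fold higher and Cd74 1.35-fold higher (log2 ratio 0.43). The words "at least" mark a ratio whose dimmer array was raised to the floor. The count at 2-fold or more was 1 of the 3 members above the floor, H2-Aa, against 0.701% of 10417 genes higher in this comparison. Nothing is read from that count, since H2-Aa passed the floor only through the array in which it is high. H2-Aa was also the only member bright enough to reach it, since Cd74 and Ctss lay under 2 times the floor in both arrays. Among the 1361 genes with a brighter array of 2 to 4 times the floor, 1.98% passed 2-fold upward. H2-Aa is not ranked among them, since the same array placed it in this range.

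In knockout, Cd74 was 1.08-fold higher in co-culture and Ctss at least 1.18-fold lower, and H2-Aa lay under the floor in both arrays. None of the 2 members above the floor was 2-fold apart, against 1.24% of 10444 genes in either direction, and neither was bright enough to be. For Cd74, 34.3% of the 1228 genes between 1 and 2 times the floor had a ratio at least as high.

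The genotype comparison addresses what the loss of Dectin-2 does in each culture. In co-culture, H2-Aa was at least 2.15-fold lower in knockout, Ctss at least 1.45-fold lower and Cd74 1.20-fold higher. The count at 2-fold or more was 1 of 3 members, H2-Aa, against 0.0962% of 10399 genes lower in this comparison (0.24% in either direction) and 0.634% of the 1420 genes of like brightness. This ratio and the co-culture ratio in wild type use the same bright array, so they are not separate evidence about H2-Aa, and this count too rests on that 1 array. As the median over its probe sets, H2-Aa lay under the floor in all 4 arrays and neither ratio remained, and with the floor at 2 times the median its log2 ratio in co-culture was -0.10.

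In separate culture, Cd74 was higher in knockout by a log2 ratio of 0.58 and Ctss was at least 1.18-fold higher. None of the 2 members above the floor was 2-fold apart, against 0.203% of 10362 genes in either direction, and neither was bright enough to be. The ratio of Cd74 was reached or passed by 59 of the 1176 genes between 1 and 2 times the floor (5.02%).

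**Figure D2:**
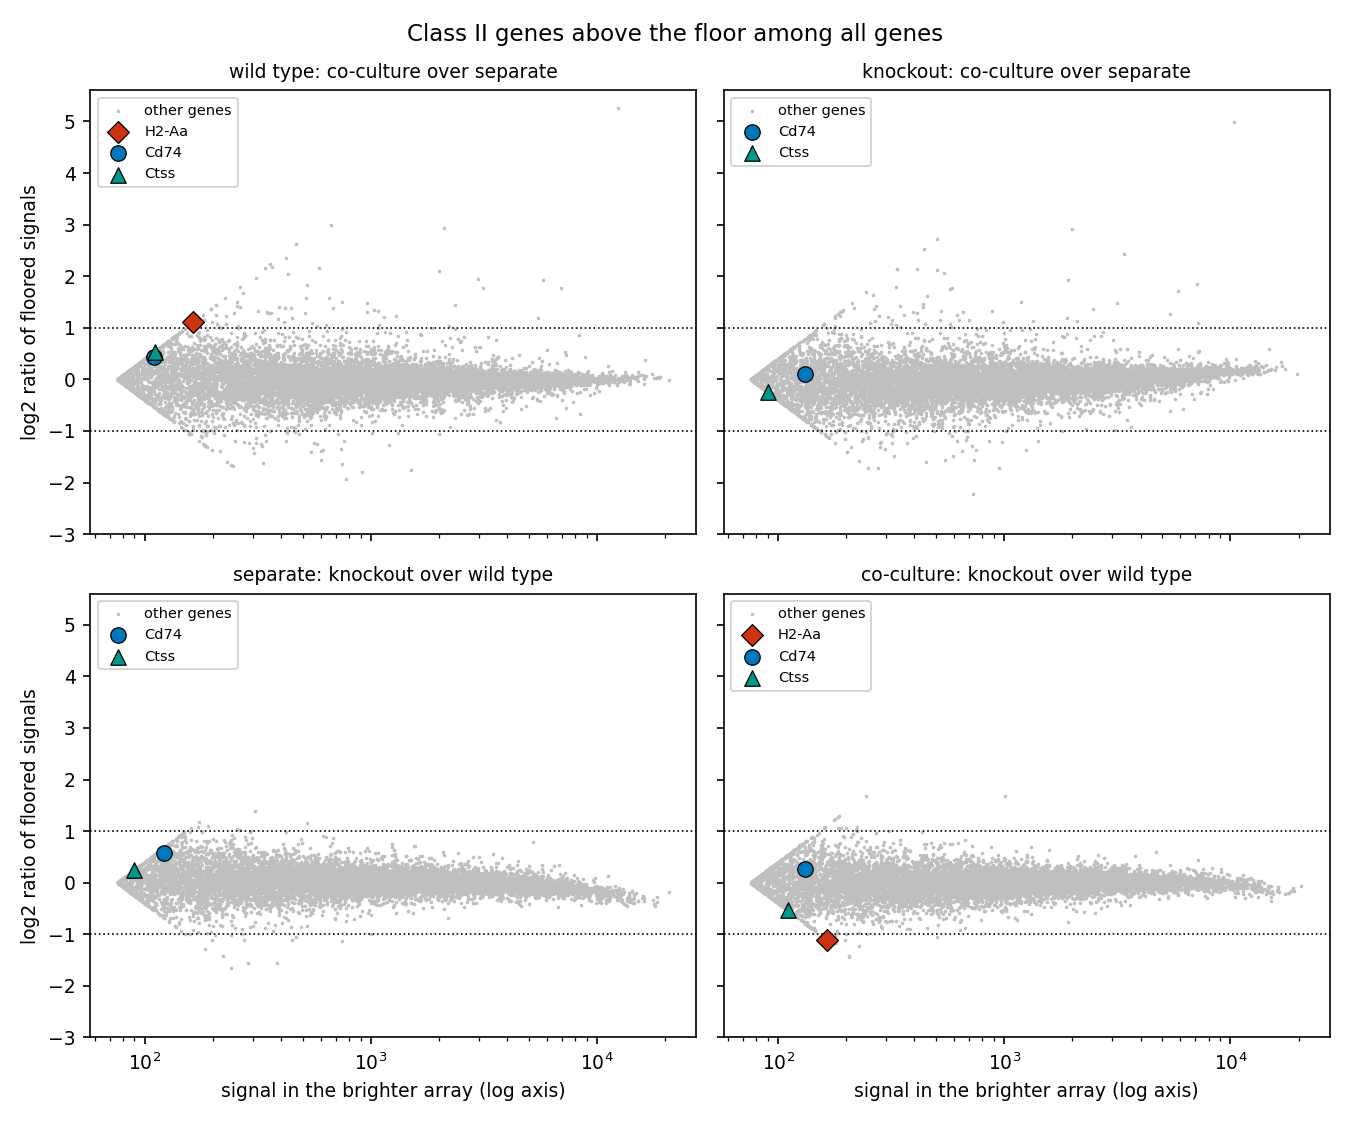
Log2 ratio of floored signals against the signal in the brighter array, on a log axis, for all genes above the floor in each of the 4 comparisons, with 1 point per gene and dotted lines at 2-fold. H2-Aa lies just beyond 2-fold, at log2 ratios of 1.10 and -1.10, in the comparisons that hold the wild-type co-culture array, and Cd74 and Ctss lie inside 2-fold in all 4; the wedge at the left is where the floor limits the ratio.

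A model with additive terms for culture and genotype was fitted (limma on 4 arrays, Benjamini-Hochberg adjustment over 10637 genes). A gene's own error came from how far an effect differed between the blocks, with 1 residual degree of freedom. It was drawn toward the trend over all genes with 11.1 prior degrees of freedom. The standard errors and p-values thus rest mostly on that trend and not on the gene's own spread. For culture, 0 of the 3 members tested passed an adjusted p of 0.05, against 6.37% of all genes (2.55% higher and 3.83% lower). H2-Aa entered the fit only through its 1 array above the floor, so its fitted difference is set by 3 values raised to the floor, and no test is read from it in either fit. The differences between co-culture and separate culture were 0.27 ± 0.19 for Cd74 (log2, SE; limma adjusted p = 0.472) and 0.15 ± 0.21 for Ctss (limma adjusted p = 0.753), and neither had an unadjusted p under 0.05, which 20.4% of all genes had. With the arrays scaled to a common median, H2-Aa had a limma adjusted p of 0.0496 for culture, from the same single array, so that no change in knockout was measured.

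For genotype, 0 of 3 members passed, H2-Aa among them, against 0.0282% of all genes. At so small a share nothing is read from this count. The difference between knockout and wild type was 0.42 ± 0.19 for Cd74 (log2, SE; limma adjusted p = 0.517), above 0 in 2 of 2 cultures, with an unadjusted p under 0.05, as 9.49% of all genes had. Some macrophage genes had differences of like size that did not pass either. They were 0.52 ± 0.19 for Cd68, a lysosomal protein of macrophages (limma adjusted p = 0.416), and 0.51 ± 0.21 for Fcer1g (limma adjusted p = 0.466). That of Tyrobp was 0.47 ± 0.19 (limma adjusted p = 0.449), and Fcer1g and Tyrobp are signalling adaptors of myeloid receptors. All 3 were brighter in knockout in both cultures, with log2 ratios of 0.63, 0.17 and 0.33 in separate culture and 0.41, 0.86 and 0.62 in co-culture. These 3 were named after their values were seen, and their part in the difference of Cd74 was not tested. Of the other pan-macrophage and leukocyte genes in the fit, Lyz2 (-0.40), Cd53 (-0.12) and Csf1r (-0.06) were lower in knockout. Laptm5 (0.31) and Mertk (0.01) were higher, and the median of the 8 genes was 0.16. The difference for Ctss was -0.15 ± 0.21 (limma adjusted p = 0.874).

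The other genes of the class II pathway were taken from lists by role. None of the 5 further chain and exchange genes on the array, H2-Ea, H2-Eb2, H2-DMb2, H2-Oa and H2-Ob, lay above the floor, and they read between 0.803 and 49.4. The transcription list, with the factors that bind the promoter module and those that signal from the interferon gamma receptor, had 13 of 16 genes above the floor in all 4 arrays. Rfx5, Rfxap and Rfxank, the subunits of the factor on the X box, read 331 to 384, 869 to 953 and 85.5 to 114, and Ifngr1, the ligand-binding chain of the interferon gamma receptor, 168 to 246. Spi1, the myeloid factor PU.1, lay under the floor at 12.8 to 34.02.

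In the culture fit, 1 of the 13 transcription genes rose and 0 fell: Nfyb, a subunit of the Y box factor, by 0.36 ± 0.08 (log2, SE; limma adjusted p = 0.0217). The median of the 13 was 0.02, against -0.01 for all genes. The probe set used for Nfyb read 1261, 1269, 1477 and 1796, and its second one was level, at 928, 911, 936 and 952 in the wild-type separate, knockout separate, wild-type co-culture and knockout co-culture arrays. Nfyb lost the call under 4 of 7 alternatives, with limma adjusted p = 0.0611 with quantile normalization and 0.221 as the median over its probe sets. In the genotype fit 0 of the 13 passed and 1 had an unadjusted p under 0.05, against 9.49% of all genes.

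The endosomal processing list had 10 of 11 genes above the floor in all 4 arrays. They included Ifi30, a thiol reductase that unfolds antigens, at 1697 to 1970, Ctsl, cathepsin L, at 7268 to 9196, and Lgmn, an asparagine-specific protease, at 219 to 287. In the limma fits 0 of 10 passed for culture and 0 of 10 for genotype, and the medians were 0.09 and -0.06 (log2). Each fit had 1 unadjusted p under 0.05 among the 10, against 20.4% of all genes for culture and 9.49% for genotype. Ctsh, cathepsin H, had a pattern close to that of Ctss, at 122 (wild type) and 138 (knockout) when cultured apart and 171 (wild type) and 122 (knockout) in co-culture.

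Of the genes that control class II turnover and T cell costimulation, few were above the floor. Marchf8, a ubiquitin ligase, read 2448 to 2833, while Marchf1, its relative that ubiquitinates class II, lay under the floor at 11.02 to 22.8. Among 10 costimulatory and checkpoint genes only Cd40, the receptor of the T cell ligand CD154, at 86.1 to 146, and Cd276, a B7 relative, at 392 to 619, lay above the floor. Cd80, the partner of Cd86 in binding CD28, read 18.3 to 60.9. Neither Cd40 nor Cd276 passed in either limma fit. Both had an unadjusted p under 0.05 for culture, as 20.4% of all genes had, with differences of -0.48 and -0.39 (log2). Marchf8 passed in neither fit.

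Genes of MHC class I and its peptide loading were brighter than the floor in 9 of 14 cases. In the culture fit 1 of 9 rose and 0 fell: Tapbp, which encodes tapasin, read 569 (wild type) and 617 (knockout) when cultured apart and 1059.7 (wild type) and 1191 (knockout) in co-culture. Both co-culture arrays lay above both separate arrays, and the difference was 0.92 ± 0.10 (log2, SE; limma adjusted p = 0.000163). Its second probe set had the same order of cultures, at 69.1, 106, 174 and 156. Without the mean-variance trend Tapbp had a limma adjusted p of 0.0645. H2-K1 and H2-D1, the classical class I heavy chains, had differences of 0.38 and 0.27 (limma adjusted p = 0.105 and 0.241), and B2m, their light chain, of 0.18. The probe sets used for H2-K1 and H2-D1 are of the x_at kind, whose probes can also match related sequences. The median of the 9 was 0.07. In the genotype limma fit 0 of 9 passed and 0 had an unadjusted p under 0.05, against 9.49% of all genes.

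**Figure D3:**
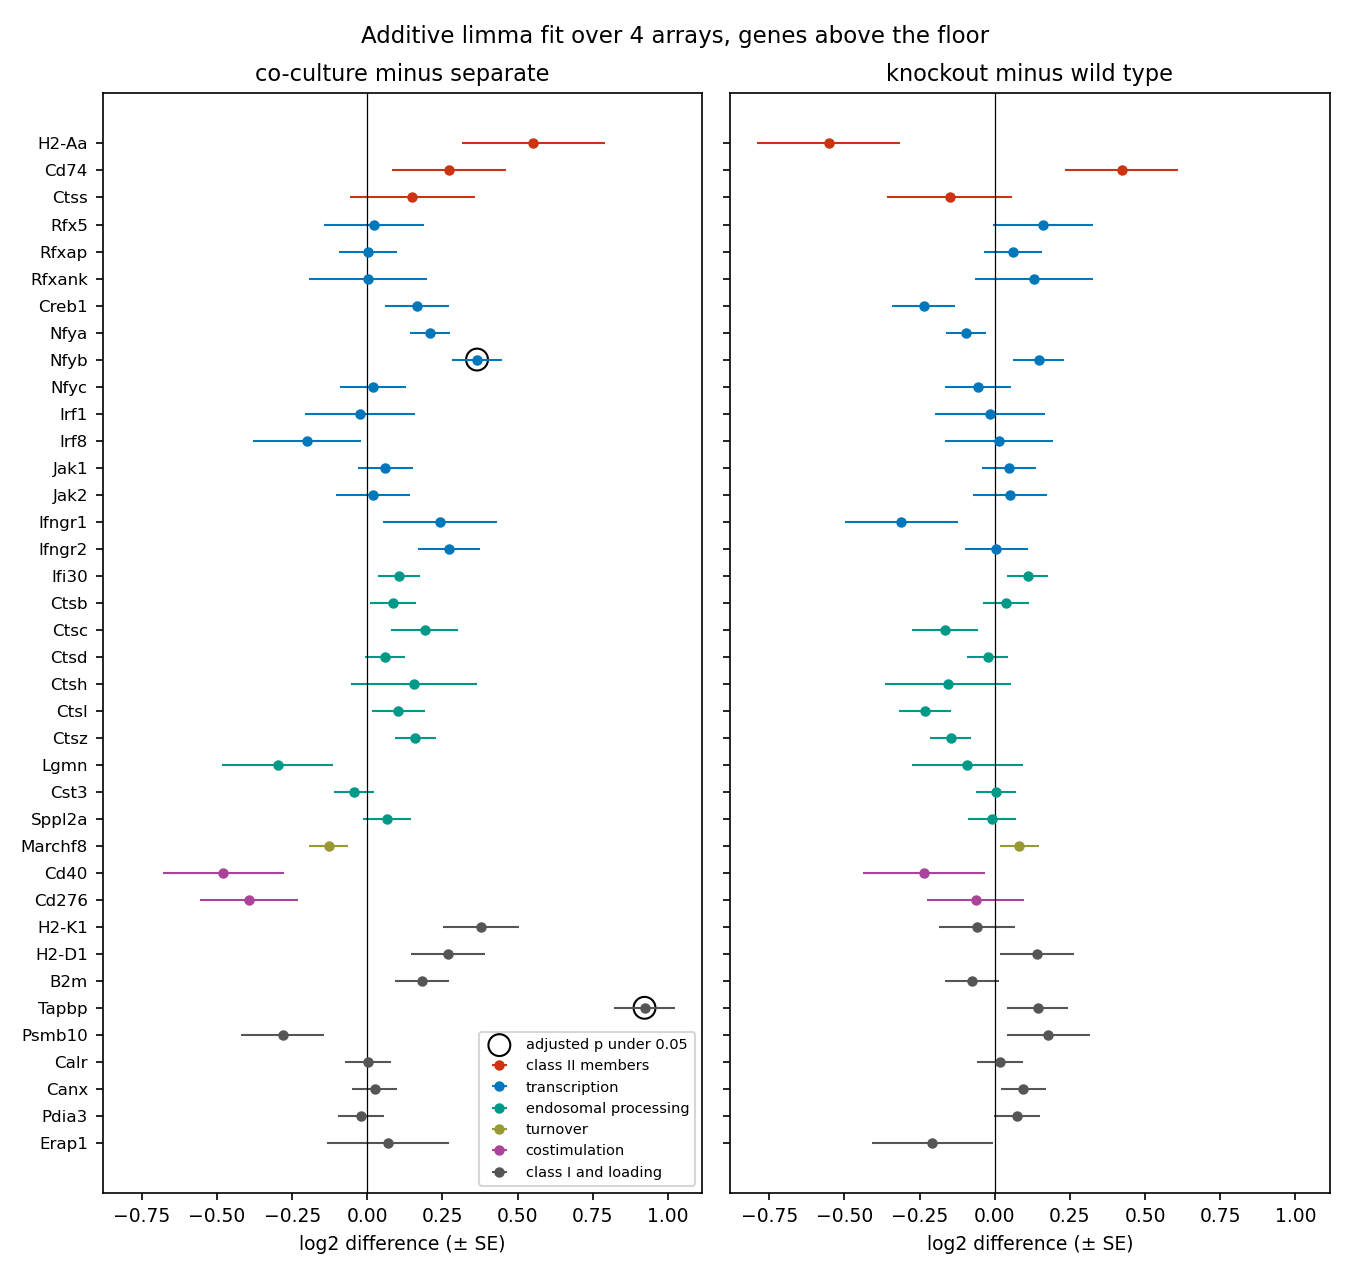
Log2 differences with their standard errors from the additive limma fit over 4 arrays, for co-culture minus separate (left) and knockout minus wild type (right), for the members and the pathway genes above the floor. Circles mark an adjusted p under 0.05, which Nfyb and Tapbp have for culture and none of these genes has for genotype; the points of H2-Aa rest on 1 array above the floor.

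The signals of other cell type genes stand beside these values. Clec4n, the deleted gene, was under the floor in all arrays, at 14.2 (separate) and 17.6 (co-culture) in wild type and 8.29 (separate) and 8.19 (co-culture) in knockout. Its second probe set read 4.21, 0.629, 7.35 and 3.49 (wild-type separate, knockout separate, wild-type co-culture, knockout co-culture). The sources used here do not say which exons were removed or whether these probe sets match them, so these values do not check the labels. The genes of the sorting markers were under the floor as well: Ptprc (CD45) read 13.8 to 36.4, Itgam (CD11b) 0.456 to 24.3 and Adgre1 16.8 to 35.8. The floor was passed in 1 or more arrays by 8 of 17 pan-macrophage and leukocyte genes and by 7 of 17 Kupffer cell genes. In the limma culture fit 0 of those 8 and 1 of those 7 passed an adjusted p of 0.05, and in the genotype fit 0 of either. Without adjustment, 3 of the 8 had a genotype p under 0.05, namely Cd68, Fcer1g and Tyrobp, against 9.49% of all genes. Clec4f and Timd4, which mark Kupffer cells, lay under it in all arrays, at 35.4 to 58.0 and 1.63 to 20.2. The summed signal of the pan-macrophage list was 1840 (wild type) and 2081 (knockout) when cultured apart and 2023 (wild type) and 2072 (knockout) in co-culture. Its largest parts were Cd53, at 663, 719, 793 and 615 in the same order, and Laptm5, at 350, 502, 384 and 410. The summed signal of the Kupffer list was 2987, 2996, 3350 and 3203 in the same order. Most of it came from Id3, a transcriptional regulator not specific to Kupffer cells, and without Id3 the sums were 847, 1036, 1140 and 971. C1qb, a complement gene of macrophages, read 100.3, 147, 264 and 211 in that order and rose in co-culture by 0.96 ± 0.23 (log2, SE; limma adjusted p = 0.026). A second C1qb probe set above the floor read 115, 133, 205 and 134, higher in co-culture in wild type and level in knockout. Both are of the x_at kind, whose probes can also match related sequences. The third lay under the floor, at 32.0, 29.3, 47.0 and 37.6. C1qb lost the call under 5 of 7 alternatives, with a limma adjusted p of 0.314 as the median over its probe sets.

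The summed signal of the 8 members, 1 probe set each, was 274 (wild type) and 353 (knockout) when cultured apart and 474 (wild type) and 365 (knockout) in co-culture. The probe set of H2-Aa carried most of this spread, and without it the sums were 259, 309, 310.4 and 309 in the same order. The pan-macrophage median log2 ratio was 0.20 in the wild-type co-culture comparison, and relative to it the log2 ratio of H2-Aa was at least 0.91. In the genotype comparison within co-culture that median was 0.09 and the ratio of H2-Aa relative to it was -1.20 or lower. In such mixed RNA, fewer cells of a type and less RNA per cell cannot be told apart, and how far the number of Kupffer cells moved with these signals was not tested.

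Genes of other cells that display class II lay mostly under the floor. Of 9 B cell genes 0 lay above the floor, with sums of 190, 176, 168 and 136 in the wild-type separate, knockout separate, wild-type co-culture and knockout co-culture arrays. Of 10 dendritic cell genes 1 did, Zbtb46, a transcription factor of classical dendritic cells, at 206 to 277, and Flt3, the receptor of their growth factor, read 1.10 to 13.8. The dendritic cell sums were 317, 442, 352 and 282 in the same order, highest in the knockout separate array. Most of each sum came from Zbtb46, at 226, 277, 239 and 206. No marker on these lists was at exactly 0. The T and natural killer cell list (8 genes), the neutrophil and monocyte list (7) and the liver endothelial list (10) had 0 genes above the floor, the hepatocyte list 3 of 7, with Alb, albumin, at 324 to 347, and the epithelial list 3 of 12, with 0 of these 6 genes passing in either limma fit. A sort for all 3 antigens would remove B, T, endothelial and parenchymal cells, but its purity is not given in the sources used here. The part of these cells in the class II signals was not tested.

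The genes whose 4 floored log2 signals, centred on their mean, lay closest to each member were taken from 9375 genes whose brightest array reached 2 times the floor or more. The distance is Euclidean on the log2 scale over 4 arrays. For H2-Aa they were 3110021A11Rik at a distance of 0.27, Cep97 at 0.32 and Zfp341 at 0.35. For Cd74 they were Zfp398 at 0.03, Zbtb21 at 0.05 and Mocs1 at 0.07, and for Ctss they were Coq3 at 0.04, Sertad3 at 0.06 and Ctsh at 0.06. H2-Aa had 1 array above the floor and Ctss 2, so their other values are the floor itself and shape their distances. All these distances describe the 4 arrays and carry no test.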

How the data were processed

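The authors deposited linear intensities per probe set, made with Affymetrix Expression Console 1.4 and MAS5, per the submitters' processing notes. Because MAS5 scales every array to the same target, a change in total RNA per cell cannot be seen. RNA (20 ng) was amplified and biotin-labelled, per the labels' protocols. Of 45037 probe sets, 34945 had 1 symbol, 932 several and 9160 none in the platform annotation, and a RefSeq table of GRCm38.p6 held 34741 of them by Entrez number and changed 0 symbols.

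Signals were raised to the floor of 76.1 and log2-transformed, and each gene was represented by its brightest probe set (mean log2 over 4 arrays). Array medians were 72.5 to 78.4, and 10117 to 10187 genes per array lay above the floor. Pairwise ratios were called at 2-fold, with no test. The additive fit used limma 3.58.1 in R 4.3.3 (lmFit and eBayes with a mean-variance trend), on the genes that passed the floor in any array, and was tested on simulated data. The error behind its p-values is how far the culture effect differed between genotypes, or the genotype effect between cultures, drawn toward the trend over all genes. Groups had no replicate arrays, so a true difference of that kind counts as error and cannot be told from technical spread. Nothing says that samples came from separate cultures or animals, so these p-values do not measure the spread between them. Members and lists were chosen with earlier results of these data known. The genes named are the members, genes of the pathway and cell type lists and the 3 nearest genes per member. Alternatives varied the floor, scaling, probe set rule, call and trend.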

Additional observations from a re-analysis of the deposited data

Results flagged for a closer look

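Ctss, the cathepsin S gene, moved in opposite directions between the cultures and between the genotypes. The difference was not tested. Knockout over wild type had a log2 ratio of 0.24 in separate culture and of -0.54 in co-culture, a difference of 0.78, and co-culture over separate had 0.54 in wild type and -0.24 in knockout, the same difference of 0.78. Of all 10637 genes, 2.95% had a difference at least as large. All of these ratios have 1 array at the floor. Without a floor they were 0.37 and -0.80 between genotypes and 0.67 and -0.50 between cultures, a difference of 1.17. For H2-Aa the knockout arrays both lay under the floor, so its change in knockout was not measured. Its difference of -1.10 (knockout change minus wild-type change) is the wild-type ratio with its sign reversed. It rests on 1 array above the floor, so nothing is read from its size.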

How the results depend on the processing

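No paired analysis was possible because the labels carry no replicate numbers and each group has 1 array; the block in each fit is the other factor of the design. Members called 2-fold numbered 1, 0, 0 and 1 for wild-type co-culture, knockout co-culture, genotype in separate culture and genotype in co-culture; without a floor, over all genes, they were 4, 1, 3 and 4, and the calls of H2-Aa were lost (0) with a floor of 2 times the median and as the median over probe sets. All genes called were 129, 130, 21 and 25 in that order. They were 3382, 3176, 3091 and 3108 without a floor, 258, 239, 90 and 98 with a floor of 0.5 times the median, 75, 79, 6 and 3 with 2 times the median, 698, 708, 289 and 311 at 1.5-fold, and 13 for genotype in co-culture as the median over probe sets. In the culture fit 678 genes were called, 110 without a floor, 1422 with a common median, 275 as the median over probe sets and 45 without the trend, and members called went from 0 to 1 (H2-Aa) with a common median. In the genotype fit 3 genes were called, 6 with a floor of 2 times the median, 92 with a common median, and 0 without a floor, with quantile normalization, as the median over probe sets and without the trend. The genotype difference of H2-Aa reversed without a floor, at 0.016 against -0.55, both from a gene with 1 array above the floor. A common median moved the median of all genes by -0.11 (log2) in the wild-type co-culture comparison, where 59 genes were then higher and 93 lower (73 and 56 as deposited), and in the culture fit 277 were higher and 1145 lower (271 and 407). In the genotype comparison in separate culture quantile normalization gave 5 higher and 18 lower (9 and 12). The alternatives for Tapbp, Nfyb and C1qb were chosen after seeing the data. The causes were not tested. Signals near the floor and 1 array per group limit the precision.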
